A study of Rattus norvegicus with 6 samples.

Results

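The genes of arginine and urea cycle metabolism were examined in 2 clonal rat cell strains, as a set of 10 genes named for their roles in the pathway: Arg1, Arg2, Ass1, Asl, Otc, Cps1, Nos2, Oat, Gatm and Odc1. All 10 were represented on the arrays, by 13 of 31099 probe sets that the platform annotation assigns to 1 of these symbols, out of 14217 genes so assigned in all. The set was put together knowing that Arg1 and Ass1 differ in opposite directions between the strains on these same arrays, so the values of the 10 genes are given as a description, without a test.

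Each strain was hybridised to 3 rat expression arrays. BDEsp-TDESM, TDESM below, is a clonal strain of cancer-associated fibroblastic cells that the labels describe by overexpression of Acta2, the actin of myofibroblasts. BDEsp-TDECC, TDECC below, is a clonal strain of cholangiocarcinoma cells, the malignant cells of bile duct cancer. Both came from tumours of Fischer 344 rats (young adult males) that grew after BDEsp cells, cholangiocytes that had transformed spontaneously, were inoculated into the bile duct, and each strain is a single clone. The labels give all 6 arrays the same text on growth, a 3-dimensional co-culture of cholangiocarcinoma cells in gels of rat type I collagen, and the same text on treatment, which names the TGF-beta inhibitors SB 431542 and LY2157299, so no treatment could be compared. Nothing says that the 3 arrays of a strain came from separate cultures, and the spread between them may therefore be technical. The values are log2 intensities summarised per probe set by RMA, a method that brings all arrays to a common distribution. In RNA pooled over many cells, fewer cells that express a gene and less RNA per cell cannot be told apart.

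The labelled cell types were borne out by their markers. All 10 measured fibroblast and myofibroblast markers were higher in TDESM, and all 8 measured epithelial and bile duct markers were lower. In the limma fit at an adjusted p under 0.05, 42.7% of all genes were called, 22.1% higher and 20.6% lower in TDESM. Of 12 hepatocyte markers 1 was called, lower in TDESM, with levels per gene of 3.57 to 6.13 in TDESM and 3.79 to 6.18 in TDECC. Of 11 macrophage and leukocyte markers 0 were called by limma (2 at an unadjusted p under 0.05), and Ptprc, the pan-leukocyte antigen CD45, stood at 3.80 in TDESM and 3.68 in TDECC; Cd14 alone stood higher, at 8.73 and 10.39. Of 7 endothelial markers 1 was called, Pecam1, which was lower in TDESM (difference -0.37, limma adjusted p = 0.0439), and levels lay between 3.40 and 5.75 in TDESM and between 3.32 and 5.70 in TDECC. Array medians were 5.80 to 5.86, and probe sets of a bacterial control transcript, trp, read 2.80 to 3.53, which gives an idea of the level without target; no detection calls were given, so no gene could be called absent.

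Arginine stands at a branch point. In the liver the urea cycle runs through carbamoyl phosphate synthetase (Cps1) and ornithine transcarbamylase (Otc) in mitochondria and through argininosuccinate synthetase (Ass1), argininosuccinate lyase (Asl) and arginase (Arg1) in the cytosol. Outside the liver, Ass1 and Asl remake arginine from citrulline, while arginases, nitric oxide synthases and glycine amidinotransferase (Gatm) consume it, and the ornithine that arginases release feeds polyamine synthesis through ornithine decarboxylase (Odc1) or glutamate and proline synthesis through ornithine aminotransferase (Oat). Loss of ASS1 is known in several human cancers, and cells without it depend on arginine from outside.

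Ass1, which catalyses the rate-limiting step of arginine synthesis from citrulline, was the gene of the set with the widest difference. It read 4.11, 3.96 and 3.72 on the TDESM arrays, against 9.64, 8.79 and 9.68 on the TDECC arrays. All TDESM values were low, all TDECC values were high, and a gap of 4.68 lay between the strains. The means were 3.93 ± 0.20 in TDESM and 9.37 ± 0.50 in TDECC (SD, n = 3 each). TDESM minus TDECC was thus -5.44 on the log2 scale (SE 0.26), or 43.4-fold lower in TDESM. Since the TDESM values lie close to the range of the trp control, the fold may understate the difference.

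Asl, which splits argininosuccinate into arginine and fumarate and so completes that synthesis, did not follow Ass1. It read 7.37, 7.64 and 8.19 in TDESM, against 8.36, 6.77 and 7.54 in TDECC. The strains overlapped, with the highest and the lowest value both in TDECC, and the log2 difference was 0.18 (SE 0.41). The probe set used here carries a transcript accession that RefSeq now gives to Hnrnpab, an RNA-binding protein, although the annotation calls it Asl. A further probe set, whose accession is that of Asl in RefSeq, read 7.47, 7.60 and 8.29 in TDESM and 8.34, 6.72 and 7.38 in TDECC. It lay within 0.16 of the other on every array, whereas the probe set annotated as Hnrnpab read 12.85 to 12.94 in TDESM and 12.72 to 13.19 in TDECC.

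Arg1, the cytosolic arginase that hydrolyses arginine to urea and ornithine, differed the other way. It read 8.76, 8.66 and 8.70 in TDESM, against 5.51, 6.16 and 4.43 in TDECC. The TDESM arrays were almost alike and all high, whereas the TDECC arrays were lower and scattered over 1.73. With means of 8.71 ± 0.05 in TDESM and 5.37 ± 0.87 in TDECC (SD, n = 3 each), the log2 difference was 3.34 (SE 0.40), or 10.1-fold higher in TDESM. Arg1 is also known as a gene of hepatocytes and of alternatively activated macrophages. The part of either cell type in the Arg1 values was not tested. Among the macrophage and leukocyte markers, Cd14 read 8.63, 8.67 and 8.90 in TDESM, against 8.65, 10.88 and 11.64 in TDECC. All others measured lay between 2.71 (Adgre1) and 5.82 (Lyz2) in TDESM, and between 3.02 and 5.97 in TDECC. Levels of the hepatocyte markers are given above.

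Arg2, the mitochondrial arginase found in many tissues outside the liver, ran against Arg1. It read 4.65, 4.62 and 4.32 in TDESM, against 5.64, 4.71 and 6.73 in TDECC. The TDESM values were the lower ones but stood only 0.06 below the lowest TDECC array, and the TDECC arrays ranged over 2.02. The log2 difference of -1.16 (SE 0.46) moved to -0.65 without TDECC replicate 3 and to -1.66 without TDECC replicate 2, so its size rested on single arrays.

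**Figure D1:**
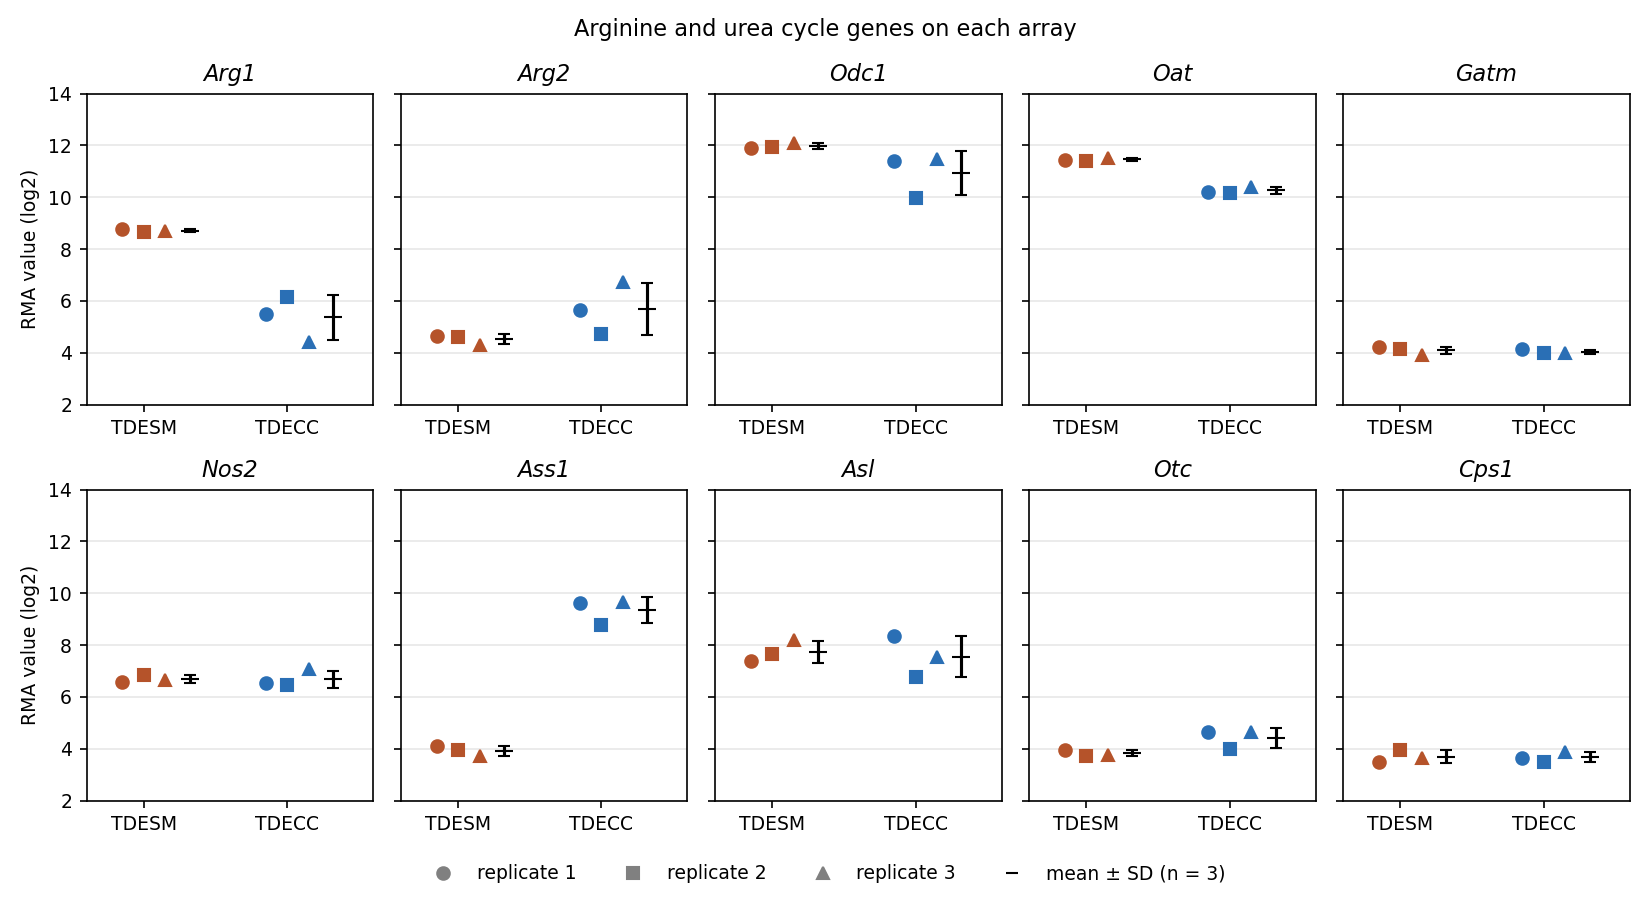
RMA values (log2 intensity, vertical axis) of the 10 genes on each of the 3 TDESM arrays (left in each panel) and the 3 TDECC arrays (right), with the mean and SD beside the points; symbols mark the replicate number. Arg1 lies near 8.71 in TDESM and 5.37 in TDECC, and Ass1 near 3.93 in TDESM and 9.37 in TDECC, while TDECC points are spread more widely in most panels.

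Cps1 and Otc carry the mitochondrial steps of the urea cycle. Cps1, which makes carbamoyl phosphate from ammonia, read 3.48, 3.96 and 3.63 in TDESM, against 3.66, 3.49 and 3.89 in TDECC. Its other probe set read 2.83 to 2.95 in TDESM and 2.75 to 2.83 in TDECC. Values of both strains overlapped, and the log2 difference was 0.01 (SE 0.17), or -1.21 centred on the poly-A controls. Both probe sets read close to the range of the trp control, where a difference may not be measurable.

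Otc, which joins carbamoyl phosphate to ornithine to give citrulline, read 3.97, 3.74 and 3.78 in TDESM, against 4.66, 3.99 and 4.64 in TDECC. The strains were separated by only 0.02, with replicate 2 of TDECC close to the TDESM arrays. The log2 difference was -0.60 (SE 0.20), or -1.82 centred on the poly-A controls. As for Ass1, the TDESM values lie close to the range of the trp control, so the size of the difference is uncertain.

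Oat and Odc1 take ornithine out of the cycle. Oat, the mitochondrial enzyme that links ornithine with glutamate and proline, read 11.45, 11.40 and 11.52 in TDESM, against 10.19, 10.18 and 10.41 in TDECC. Every TDESM array stood above every TDECC array, by at least 0.99, and the spread within a strain was small (SD 0.06 in TDESM and 0.13 in TDECC). The log2 difference was 1.20 (SE 0.12), or 2.29-fold higher in TDESM, but it was -0.02 when the arrays were centred on the poly-A control transcripts instead.

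Odc1, which turns ornithine into putrescine and limits the rate of polyamine synthesis, read 11.89, 11.92 and 12.11 in TDESM, against 11.41, 9.97 and 11.47 in TDECC. All TDESM values were above the TDECC values, of which 1, replicate 2, was far below the others. The log2 difference was 1.02 (SE 0.39), and it was 0.53 without TDECC replicate 2 and -0.20 with arrays centred on the poly-A controls.

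Gatm and Nos2 draw on arginine itself. Gatm, which starts creatine synthesis from arginine and glycine, read 4.21, 4.13 and 3.93 in TDESM, against 4.13 on replicate 1 and 4.0 on both others in TDECC, with overlapping values and a log2 difference of 0.05 (SE 0.13). Its other probe set read 3.24, 3.24 and 3.33 in TDESM and 3.98, 3.63 and 4.57 in TDECC, a difference of -0.79 without overlap. Thus the 2 probe sets of Gatm did not give the same picture, and the mean of both differed by -0.37. With the poly-A centring the probe set used here gave -1.17. The TDESM values of the other probe set lie within the range of the trp control. Those of the probe set used here are not far above it, and differences at such levels may not be measurable.

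Nos2, the inducible nitric oxide synthase, read 6.56, 6.86 and 6.64 in TDESM, against 6.52, 6.45 and 7.06 in TDECC. The strains overlapped, with a log2 difference of 0.01 (SE 0.19), or -1.21 centred on the poly-A controls. A probe set that the annotation assigns to both Nos2 and the related Nos2-ps1, and which is therefore not counted among the 13, read lower, at 3.54 to 3.68 in TDESM and 3.37 to 3.75 in TDECC. These values lie within or close to the range of the trp control, so the probe sets did not give the same level for Nos2.

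Counted over the set, 7 differences were positive and 3 negative, with a median of 0.03, beside a median of 0.00 over all 14217 genes. The values of the strains did not overlap for 6 of the 10 genes, 3 higher (Arg1, Oat and Odc1, of which Oat and Odc1 turn with the poly-A centring) and 3 lower in TDESM (Ass1, Arg2 and Otc), beside 53.6% of all genes. In the limma fit across all genes, with Benjamini-Hochberg adjustment and a threshold of 0.05, 42.7% of genes were called, 22.1% higher and 20.6% lower in TDESM; 3 of the 10 were among them, Arg1 and Oat higher and Ass1 lower. Nothing is read from these counts, since the genes were chosen knowing this comparison.

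Direction depended on the scaling for the smaller differences. Centring on the poly-A controls moved the median of all genes to -1.22, and centring on 10 housekeeping genes moved it to 0.25. All differences above are in the deposited scaling, whose median over all genes is given in the preceding paragraph. The mean of the poly-A probe sets was higher on the TDESM arrays, at 8.34, 8.46 and 9.03, against 7.22, 7.29 and 7.65 on the TDECC arrays. Arg1 stayed higher in TDESM, at 2.12, and Ass1 lower, at -6.66, when centred on these controls. Asl, Cps1, Gatm, Nos2, Oat and Odc1, all positive in the deposited scaling, were negative there, between -1.21 and -0.02. The poly-A means also varied between arrays of a strain, and this variation enters every gene alike. The limma fit pools the variances of genes as if their errors were separate. Adjusted p values and counts of calls with the poly-A centring, given below, are therefore not reliable and serve only as a description.

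**Figure D2:**
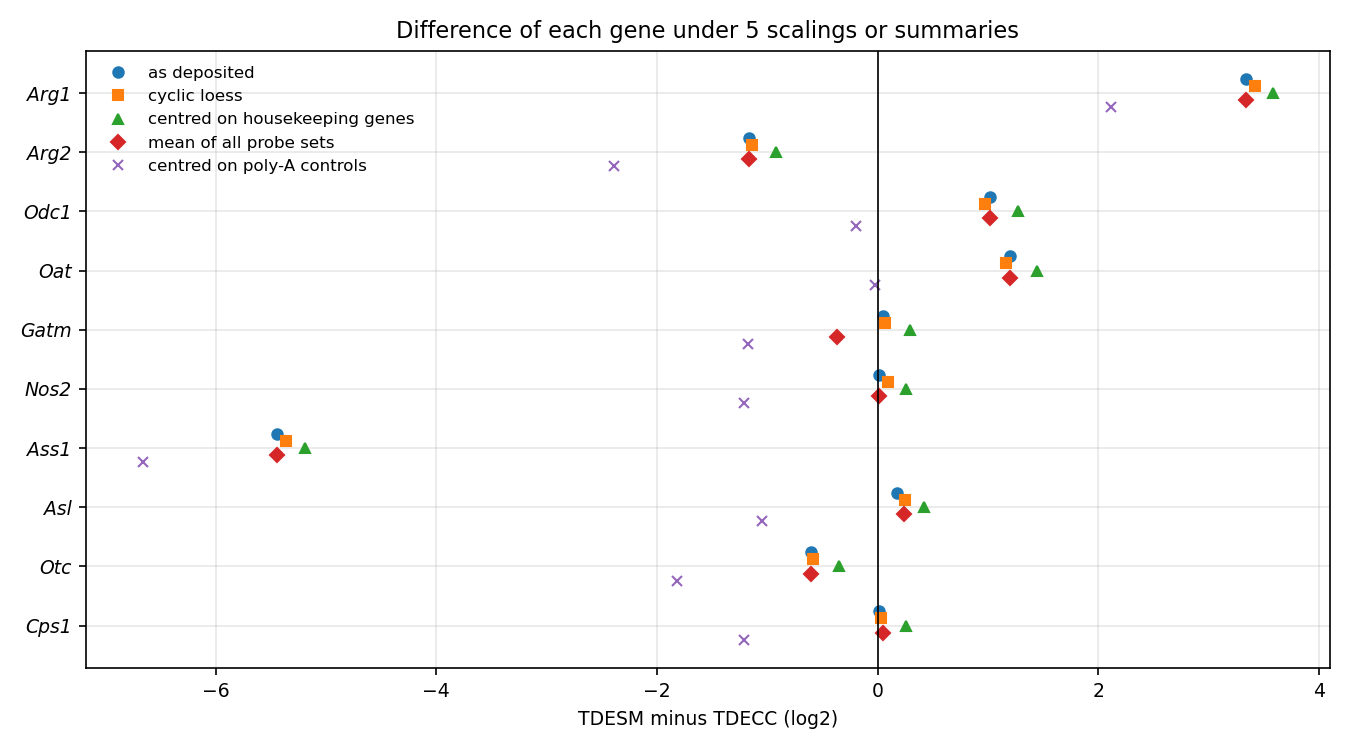
Log2 difference, TDESM minus TDECC (horizontal axis), of each gene in the deposited values, after cyclic loess, centred on housekeeping genes, with the mean of all probe sets, and centred on the poly-A controls. Arg1 (2.12 to 3.59 over these settings) and Ass1 (-6.66 to -5.19) keep their sides of 0, and Oat (1.20 as deposited) falls to -0.02 with the poly-A controls.

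The TDECC arrays varied more than the TDESM arrays in 8 of the 10 genes. The median SD of the 10 was 0.15 in TDESM and 0.44 in TDECC, beside 0.12 and 0.24 over all genes. On TDECC replicate 2 the value was the lowest of the 3 TDECC arrays for 8 of the 10 genes (80.0%), beside 33.7% of all genes and 29.6% of 81 related genes. Arg1, by contrast, was highest on that array, and Gatm was tied with replicate 3. Arg2 and Odc1 on that array differed from their TDECC means by -0.98 each and Asl by -0.79. These shares describe 3 arrays and carry no test.

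**Figure D3:**
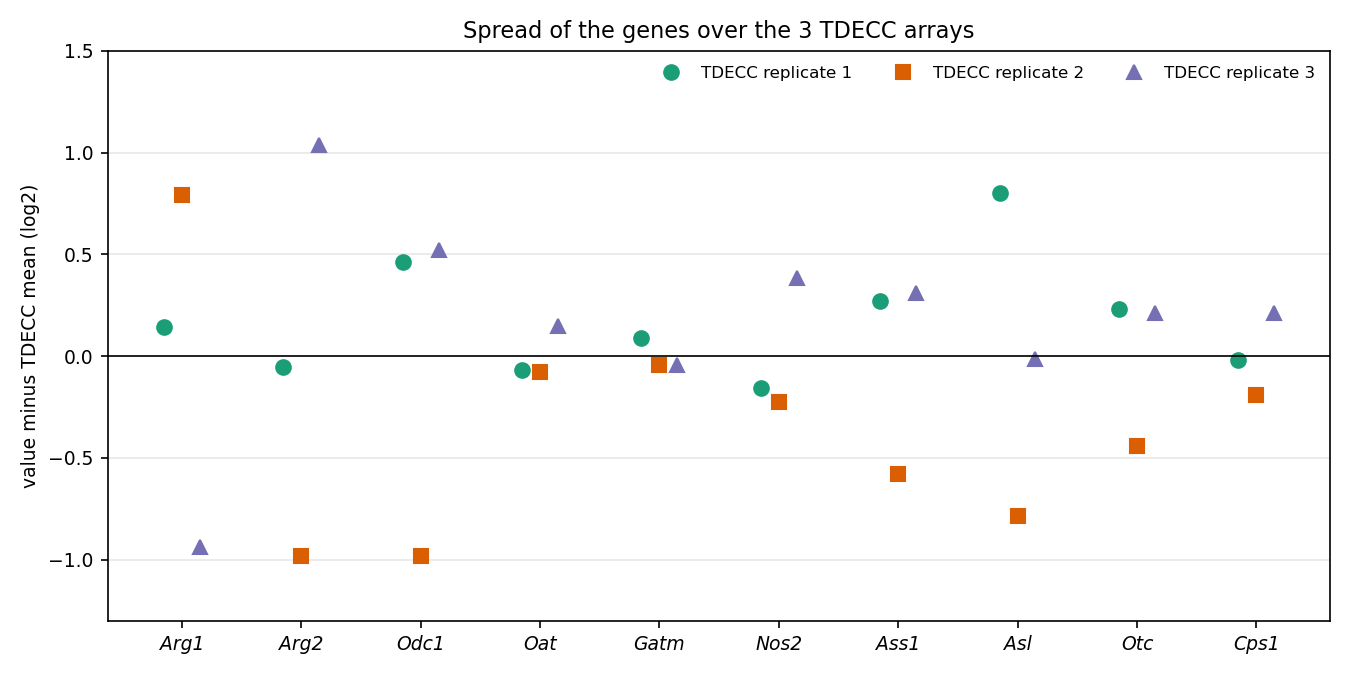
Value on each TDECC array minus the mean of the 3 TDECC arrays (log2, vertical axis) for the 10 genes; symbols mark the replicate. Replicate 2 is the lowest point for 8 of the 10 genes and the highest for Arg1.

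Promoters from RefSeq were at hand for 7 of the 10 genes, and those of Ass1, which was lower in TDESM, and of Oat and Odc1, which were higher in the deposited scaling but not with the poly-A centring, are shown because these genes of the set with a promoter sequence had the largest differences. Each window runs from 250 bases before the start used in that table to 50 bases after it, in assembly GRCr8, 5′ to 3′ on the strand of the gene: Ass1 at chr3:35149480-35149779 (plus strand), Oat at chr1:196797705-196798004 (minus strand) and Odc1 at chr6:46058415-46058714 (plus strand). Capitals mark matches, on either strand, to TATAA (known from core promoters), CCAAT (bound by NF-Y), GGGCGG (the GC box) or, last, the E-box CACGTG.
Ass1: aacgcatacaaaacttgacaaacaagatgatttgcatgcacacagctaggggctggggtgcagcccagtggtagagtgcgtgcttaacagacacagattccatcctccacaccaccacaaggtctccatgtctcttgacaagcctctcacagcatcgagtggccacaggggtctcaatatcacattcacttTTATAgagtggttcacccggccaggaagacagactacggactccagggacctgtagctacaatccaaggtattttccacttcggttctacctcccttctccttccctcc
Oat: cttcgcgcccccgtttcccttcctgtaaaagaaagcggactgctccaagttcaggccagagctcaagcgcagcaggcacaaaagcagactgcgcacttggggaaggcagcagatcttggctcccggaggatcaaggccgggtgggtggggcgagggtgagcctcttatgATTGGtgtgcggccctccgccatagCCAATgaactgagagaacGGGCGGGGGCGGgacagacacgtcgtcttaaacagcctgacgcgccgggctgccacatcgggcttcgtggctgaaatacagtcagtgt
Odc1: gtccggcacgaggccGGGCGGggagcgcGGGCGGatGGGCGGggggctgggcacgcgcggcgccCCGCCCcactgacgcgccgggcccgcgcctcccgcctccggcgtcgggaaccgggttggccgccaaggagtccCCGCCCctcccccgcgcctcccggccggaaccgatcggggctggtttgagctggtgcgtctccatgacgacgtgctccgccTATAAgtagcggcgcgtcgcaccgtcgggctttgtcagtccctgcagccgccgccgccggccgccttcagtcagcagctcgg

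The 3 windows differed in composition. The share of G and C was 51.0% for Ass1, 61.0% for Oat and 77.3% for Odc1. Odc1 held 5 matches to the GC box and a TATAA on the strand of the gene 32 bases before the start. Oat held 2 adjacent GC boxes and 2 CCAAT matches, and Ass1 a single TATAA match, on the opposite strand. No matches overlapped, and CACGTG was not in any of the 3 windows. Among 33469 promoter windows of the same length, 26.2% held TATAA, 37.5% CCAAT, 33.1% GGGCGG and 6.4% CACGTG, and a match is only a description of the letters.

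Genes that transport or further metabolise arginine and its products were set beside the 10, in 6 lists chosen by role. Of 81 measured genes, 34 (42.0%) passed the limma adjusted p of 0.05, close to the 42.7% of all genes, with 21 higher and 13 lower in TDESM. The split rested on the scaling: it was 30 and 11 centred on housekeeping genes, against 4608 and 2086 for all genes, and 3 and 58 centred on the poly-A controls, against 898 and 10873 for all genes. The poly-A centring turned the sign of 28 of the 81, among them 9 that were called higher in the deposited scaling (Slc3a2, Slc25a29, Azin1, Dhps, Dohh, Pts, Cebpd, Nfkb1 and Stat3). The median difference was 0.01.

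Among 10 carriers of cationic amino acids or of the mitochondrial side of the cycle, 5 were called higher in TDESM and 1 lower. The median difference was 0.49. With the poly-A centring 1 was called higher and 5 lower, beside 898 and 10873 of all 14217 genes. Slc7a7, a light chain that exports cationic amino acids in exchange for neutral ones, read 8.53, 8.84 and 8.91 in TDESM, against 5.81, 4.49 and 4.74 in TDECC, without overlap. The log2 difference was 3.75 (SE 0.34, limma adjusted p = 1.33e-04), and it was 2.53 centred on the poly-A controls. The related light chain Slc7a6 was higher by 1.34 (limma adjusted p = 0.00374) and the mitochondrial aspartate-glutamate carrier Slc25a12 by 1.33 (limma adjusted p = 0.00206), and these were 0.12 and 0.11 with the poly-A centring.

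Slc25a15, the mitochondrial ornithine carrier of the urea cycle, was the 1 carrier lower in TDESM. It read 7.71, 7.59 and 7.71 in TDESM, against 8.99, 9.66 and 8.85 in TDECC, which differ by -1.50 on the log2 scale (SE 0.22, limma adjusted p = 0.00143), or by -0.79 when its 6 probe sets are averaged. Slc7a1, the main importer of arginine in many cells, read 10.54 ± 0.15 in TDESM and 10.66 ± 0.64 in TDECC (SD, n = 3 each). It was not called (limma adjusted p = 0.783). With the poly-A centring, which moved the median of all genes to -1.22, it differed by -1.35.

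Of 17 polyamine genes 5 were called higher and 5 lower in TDESM in the deposited scaling, against 7 and 5 with housekeeping centring. With the poly-A centring 13 were called, all lower, beside 10873 of all 14217 genes called lower. Sat1, the acetyltransferase that starts polyamine breakdown and export, read 11.52, 11.46 and 11.35 in TDESM, against 13.56, 13.30 and 13.61 in TDECC. All TDESM values were well below all TDECC values, and the difference in log2 was -2.05 (SE 0.13, limma adjusted p = 2.40e-05). Smox, spermine oxidase, differed by -1.72 (limma adjusted p = 0.0113), and Atp13a2, a lysosomal polyamine transporter, differed by -0.88 (limma adjusted p = 0.0124). The Atp13a2 call did not hold when TDESM replicate 1 (adjusted p = 0.0515) or TDESM replicate 2 (adjusted p = 0.0566) was omitted.

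In the other direction, Srm, spermidine synthase, read 10.87, 10.94 and 11.27 in TDESM, against 10.35, 8.97 and 9.11 in TDECC. Its log2 difference of 1.55 (SE 0.36, limma adjusted p = 0.0121) was not past the threshold without TDESM replicate 3 (adjusted p = 0.0555) or centred on the poly-A controls (adjusted p = 0.397). Oaz2, an antizyme that marks ornithine decarboxylase for degradation, was higher by 1.51 (SE 0.10, limma adjusted p = 3.45e-05), and Dhps, which uses spermidine to make hypusine on the translation factor Eif5a, by 1.20 (limma adjusted p = 9.67e-04). Centred on the poly-A controls, Oaz2 differed by 0.29 and Dhps by -0.02.

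Among 13 genes of nitric oxide and dimethylarginine metabolism 2 were higher and 1 lower, against 4 and 1 with housekeeping centring. The poly-A centring gave 11 calls, all lower, beside 10873 of all 14217 genes called lower. Gch1, which makes the first intermediate of tetrahydrobiopterin, the cofactor of nitric oxide synthases, read 5.07, 5.18 and 5.23 in TDESM, against 10.21, 10.14 and 8.45 in TDECC. The strains were far apart, at -4.44 in log2 (SE 0.45, limma adjusted p = 2.43e-04), or -3.16 when its 2 probe sets are averaged. Pts, the next enzyme of that pathway, was higher by 0.69 (limma adjusted p = 0.0283), a call lost when any of 5 arrays was left out (adjusted p up to 0.102) and a sign that turned, at -0.53, with the poly-A centring.

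Nostrin, which binds the endothelial synthase, was higher by 1.42 (limma adjusted p = 0.00786), or 0.20 centred on the poly-A controls. The synthases Nos1 and Nos3, given in addition, stood at 3.97 and 3.26 in TDESM and at 3.95 and 3.10 in TDECC. These levels lie within or close to the range of the trp control, where a difference may not be measurable. Ddah1, which breaks down methylated arginines that inhibit these synthases, read 10.20 ± 0.05 in TDESM and 10.26 ± 0.57 in TDECC (SD, n = 3 each). It was not called (limma adjusted p = 0.872). With the poly-A centring it differed by -1.29, beside a median of -1.22 over all genes.

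Of 6 creatine genes 1 was higher and 1 lower. With the poly-A centring 5 were called, all lower, beside 10873 of all 14217 genes called lower. Gamt, which methylates the product of Gatm to creatine, read 8.93, 8.89 and 9.28 in TDESM, against 7.55, 7.54 and 7.80 in TDECC. It was higher on every TDESM array, by 1.40 in log2 (SE 0.15, limma adjusted p = 3.62e-04), or 0.18 with the poly-A centring. Ckmt1, a mitochondrial creatine kinase, read 3.60, 3.82 and 3.57 in TDESM, against 6.21, 9.35 and 7.67 in TDECC, a difference in log2 of -4.08 (SE 0.70, limma adjusted p = 0.00302) over TDECC arrays that were widely scattered. Its TDESM values lie close to the range of the trp control, so the size of the difference is uncertain. Ckb, the brain-type creatine kinase, differed by -0.70 and was not called (limma adjusted p = 0.141), but was without TDECC replicate 3 (adjusted p = 0.0228). The poly-A centring, which moved the median of all genes to -1.22, gave -1.92 for Ckb.

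Proline, glutamate and aspartate genes had 4 called members among 16, all higher in TDESM, with a median difference of -0.01. The poly-A centring gave 2 higher and 10 lower, beside 898 and 10873 of all 14217 genes. Gls2, a glutaminase, read 10.73, 10.69 and 10.76 in TDESM, against 8.48, 8.59 and 8.29 in TDECC, without overlap, and the log2 difference was 2.27 (SE 0.12, limma adjusted p = 1.01e-05). Pycr3, a reductase of the last step to proline, was higher by 1.97 (limma adjusted p = 7.36e-05). Aldh18a1, which makes the proline precursor from glutamate, was higher by 1.43 (limma adjusted p = 0.0109). That call did not hold with TDESM replicate 3 omitted (adjusted p = 0.0515) or with the poly-A centring, where the difference was 0.21. Gls2 and Pycr3, together with Slc7a7, were the 3 related genes still called higher with the poly-A centring. Pycr3 was so only just, at 0.75 (limma adjusted p = 0.0498), and adjusted p values of that centring are not reliable. Glul, glutamine synthetase, differed by -0.45 and was not called (limma adjusted p = 0.0822). It was called when its 3 probe sets were averaged (adjusted p = 0.0486), without TDECC replicate 1 (adjusted p = 0.0447) or without TDESM replicate 3 (adjusted p = 0.0366). The poly-A centring gave -1.67 for Glul, beside a median of -1.22 over all genes.

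**Figure D4:**
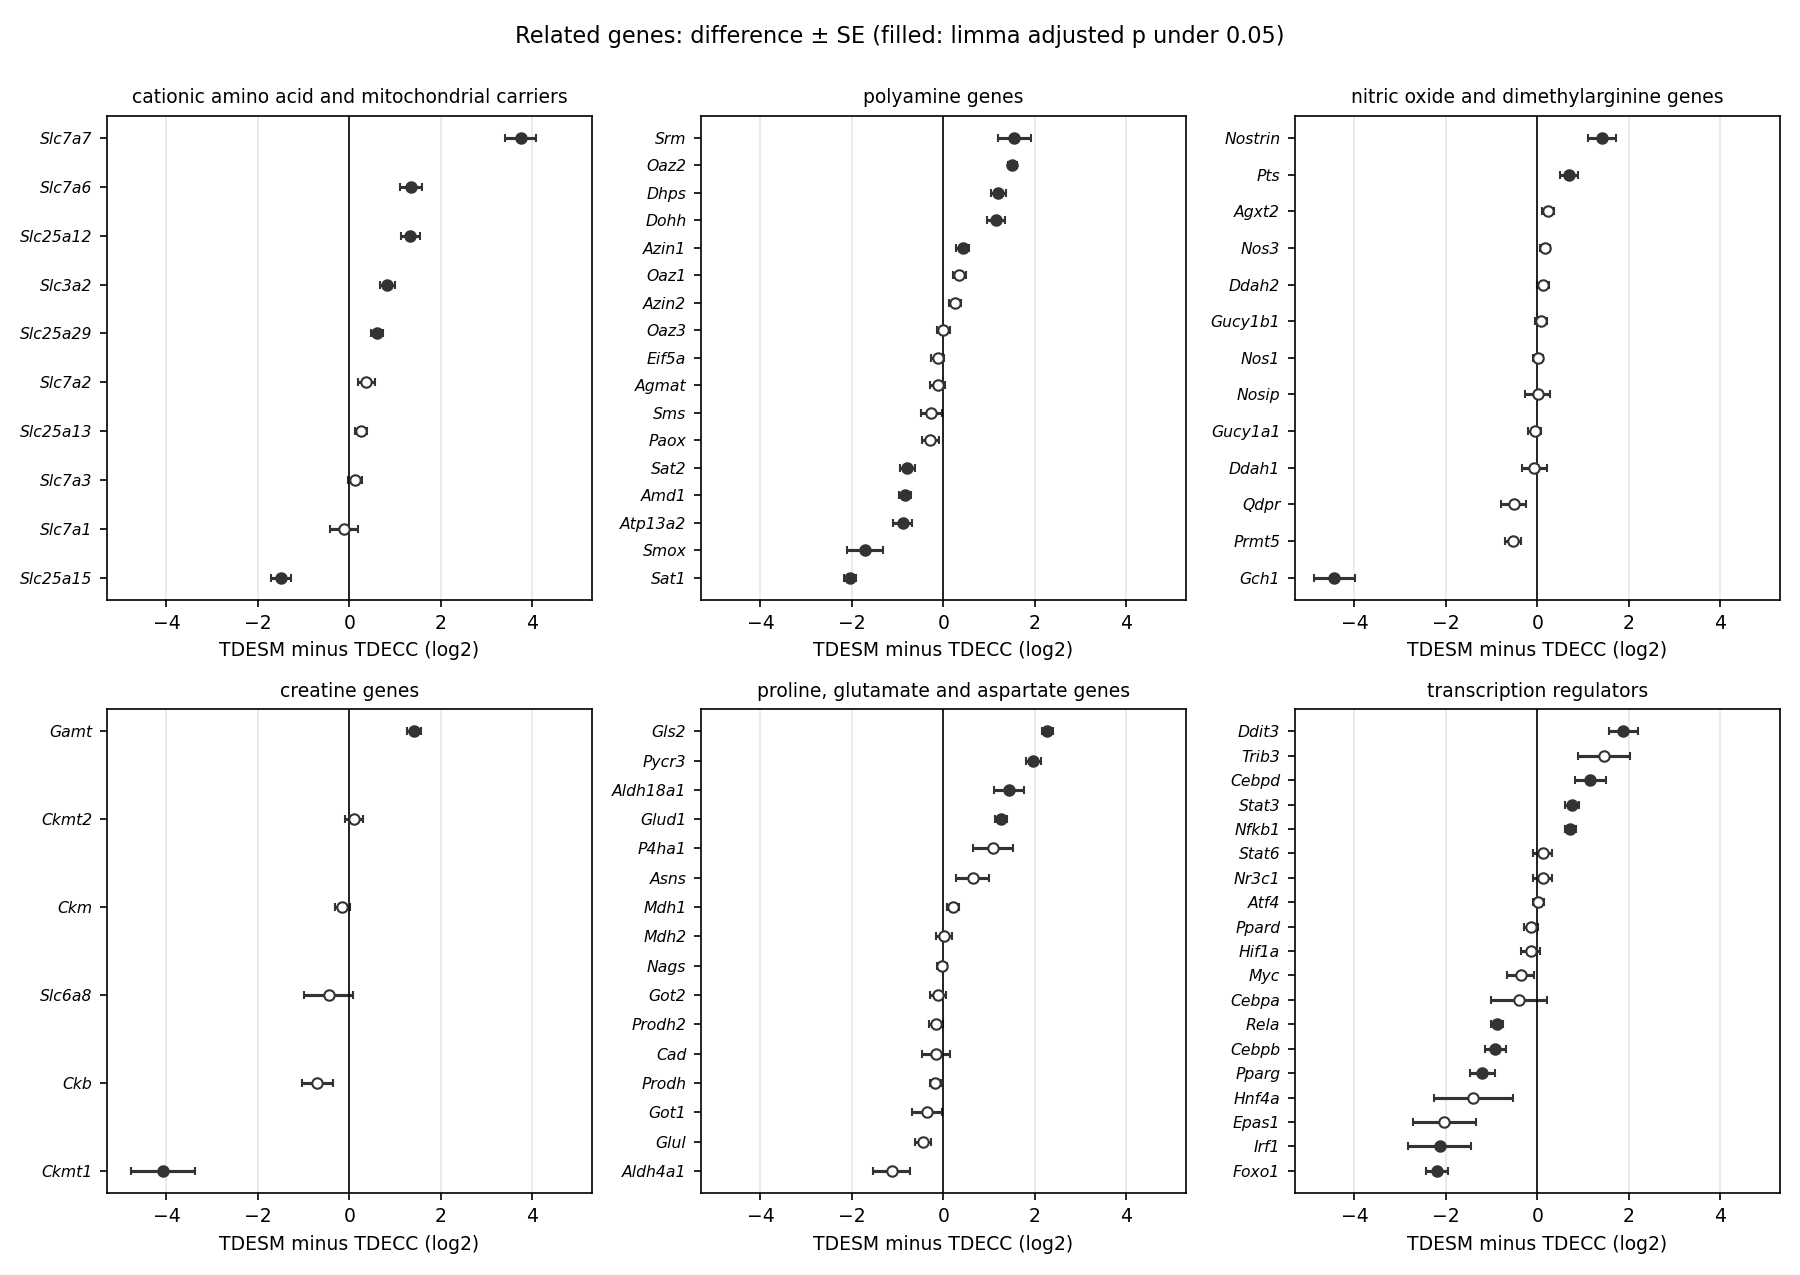
Log2 difference, TDESM minus TDECC, with its SE (horizontal axis), for the 81 related genes in 6 lists; filled points passed the limma adjusted p of 0.05. Slc7a7 (3.75) lies farthest to the higher side, and Gch1 (-4.44) and Ckmt1 (-4.08) to the lower side; with the poly-A centring, not drawn, 28 of the 81 change sign.

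Of 19 transcription regulators known from work on these or neighbouring genes, 4 were higher and 5 lower in TDESM, against 5 and 3 with housekeeping centring. The poly-A centring gave 14 calls, all lower, beside 10873 of all 14217 genes called lower. Ddit3, a stress-induced factor also called CHOP, was higher by 1.88 (limma adjusted p = 0.00301), Stat3 by 0.75 (limma adjusted p = 0.00576) and Cebpd by 1.16 (limma adjusted p = 0.0322). Centred on the poly-A controls these were 0.66, -0.47 and -0.06, and the Cebpd call was also lost without any of 5 arrays (adjusted p up to 0.103). Foxo1 differed by -2.20 (limma adjusted p = 3.72e-04), or -0.74 when its 3 probe sets were averaged. Irf1, an interferon-induced factor, differed by -2.14 (limma adjusted p = 0.0430), and Pparg by -1.20 (limma adjusted p = 0.0113). Irf1 was no longer called with TDECC replicate 2 omitted (adjusted p = 0.0636), with any 1 TDESM array omitted (adjusted p up to 0.120), after cyclic loess (0.0528), with housekeeping centring (0.0530) or with trended, robust variances (0.0549), and its difference was -1.29 without TDECC replicate 3. Irf1 read 7.58, 7.67 and 7.97 in TDESM, against 8.59, 9.46 and 11.58 in TDECC.

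The genes outside the set with the profile closest to Arg1 over the 6 arrays, by the root-mean-square distance between log2 profiles centred on their means, were Pea15 (0.19), Mme (0.23) and Calu (0.27). For Ass1 they were Mal (0.20), Isyna1 (0.28) and Wwc1 (0.34). With 2 strains of 3 arrays these distances mostly compare the size of the strain difference, which was 3.02 for Pea15 and -5.60 for Mal, and they are given as a description.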

How the data were processed

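The deposited table holds log2 values of 31099 probe sets on 6 arrays, which the authors produced by RMA (a version is not named), as the submitters' processing notes list it. Per the labels' protocols, Trizol was used for the RNA and arrays received biotin-labelled cRNA. Sample titles gave the groups and the replicate numbers, and no pair of arrays shared over 5.74% of identical values. Without detection calls or counts, the number of arrays limits the precision.

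The platform annotation gave 1 symbol to 20826 probe sets, several to 436 and none to 9780, beside 57 controls; 99.7% of the named ones had an Entrez identifier in the RefSeq table of GRCr8, and 0 symbols changed. For each gene the brightest probe set on average was taken (4525 of 14217 genes had several), with no filter on dim genes. All genes were fitted together with limma 3.58.1 in R 4.3.3 (lmFit, eBayes, TDESM minus TDECC, two-sided, Benjamini-Hochberg, threshold 0.05), without a replicate block. The genes and the lists of related genes were chosen with earlier results of these data known. From each list the 3 largest called differences each way are named, plus a best known gene where it was not called, and for Arg1 and Ass1 the 3 closest profiles; genes given in addition were picked after their values were seen. Alternatives were cyclic loess, centring on 10 housekeeping genes or 24 poly-A control probe sets (dap, lys, phe and thr), leaving out the dimmest genes (9477 kept), averaging the probe sets of a gene, trended and robust eBayes, a replicate block and leaving out each array.

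The limma script was tested on simulated data. It recovered 51% of changes of log2 size 1 and 80% of those of size 2, and 3.68% of its calls were unchanged genes. A gene that was not called may therefore still differ.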

Additional observations from a re-analysis of the deposited data

How the results depend on the processing

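Arg1 stayed higher and Ass1 lower in TDESM under all 13 alternatives run, at 2.12 to 3.74 and -6.66 to -5.19; leaving out each array in turn gave 2.87 to 3.74 for Arg1 and -5.73 to -5.29 for Ass1. Oat was positive under 12 of 13, the exception being the poly-A centring (-0.025). That centring also gave 11771 called genes (898 higher and 10873 lower), 61 called related genes (3 higher and 58 lower), 11 nitric oxide, 5 creatine, 12 proline, glutamate and aspartate genes and 14 regulators, with Arg1 at 2.12 and Ass1 at -6.66, and turned the sign of Dhps (-0.018), Pts (-0.53), Cebpd (-0.061) and Stat3 (-0.47). The shift is the same for all genes by construction, and whether the controls were added in equal amounts was not tested. Its adjusted p values and counts of calls are not reliable, for the reason given with the scalings above. Housekeeping centring gave 5 called nitric oxide genes. It turned the sign of 14 of the 81 related genes, none of which was called in the deposited scaling. Of the related genes named above these were Slc7a1 (0.12) and Ddah1 (0.18), neither of them called. With only the 9477 brighter genes 3 creatine genes were left and 1 was called, and Arg2, Otc, Cps1 and Gatm were left out. Leaving out each array gave 4605 to 6437 called genes and 28 to 38 called related genes, with Slc7a1 between -0.46 and 0.17 and Ddah1 between -0.23 and 0.26. With the replicate block 5342 genes and 34 related genes were called and no call of a named gene changed; deviations of arrays with the same number correlated at -0.07, 0.02 and -0.14 over genes, so the numbers were not taken to pair the arrays.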
